A study of Saccharomyces cerevisiae with 6 samples.

Results

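The genes described here encode the 26S proteasome of *Saccharomyces cerevisiae*, its maturation factor and its transcriptional activator. They were chosen by gene symbol, as 35 of the 5656 genes measured, and each was represented by the brightest of its probe sets. Of these genes, 14 encode the core particle, 19 encode the regulatory particle, and *RPN4* and *UMP1* encode proteins that are not subunits. All 35 were found on the array.

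RNA was measured in strain S288C, a haploid of mating type alpha that carries *SUC2* and *CUP1* together with the *mal*, *mel*, *gal2*, *flo1* and *flo8-1* alleles. There were 3 independent cultures given 70 μM pterostilbene, a stilbene of grape and blueberry added from a stock in dimethyl sulfoxide (DMSO), and 3 independent cultures given 0.25% DMSO alone. Cultures in synthetic dextrose medium received these additions when their absorbance was 0.2, and harvest followed at 0.5, so that the pterostilbene cultures, treated at a dose chosen to inhibit growth, and the controls were matched by density and not by time. The DMSO content of the pterostilbene cultures is not given, so the solvent dose may differ between the groups, and its effect cannot be told apart from that of the compound. Slower growth and a direct effect of the compound cannot be told apart here, nor can more transcript per cell and a larger share of all RNA.

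The proteasome degrades proteins tagged with ubiquitin. Its core particle is a barrel of stacked rings, in which the outer alpha rings gate the entrance and the inner beta rings hold the peptidase sites, and the regulatory particle caps the barrel, with a base of ATPases that unfold the substrate and a lid that removes ubiquitin. In yeast most genes of the complex are activated by Rpn4p, which is itself a short-lived substrate of the proteasome, so that a fall in proteasome capacity lets the activator accumulate.

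The values are linear intensity signals computed by the Affymetrix software and scaled per array by the authors. The median signal was 161.6 to 170.2 on the pterostilbene arrays and 119.1 to 123.4 on the control arrays, and over all genes the median log2 fold change was 0.22. The 3 other scalings moved this value. The median shift was -0.13 with quantile normalization, -0.23 with arrays centred on their medians (median centring) and 0.42 with arrays centred on 7 reference genes. Median centring used all 9275 tested probe sets, of which 2443 had no gene. Values after it are therefore to be read against -0.23, the median over genes, and not against 0. Poly-A control transcripts, which are added to the RNA before labelling, had 5.11 times the control signal with pterostilbene, and hybridization controls, which enter after labelling, had 1.06 times, so directions are relative to the other transcripts measured. The controls showed the alpha-specific genes *MF(ALPHA)1*, *MF(ALPHA)2*, *STE3* and *SAG1* at mean signals of 1748 to 12450.5, and all 4 fell with pterostilbene. Of 6 a-specific genes, *MFA1*, *BAR1* and *STE6* rose by 1.11, 1.77 and 1.38 on the log2 scale, *STE2* fell and 2 did not pass the test, with mean signals of 18.9 to 524 with pterostilbene and 14.4 to 241 in the controls. Their part in the results on proteasome genes was not tested. Precision is limited by the number of arrays, since 3 against 3 allow no two-sided p below 0.1 in an exact permutation test.

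More proteasome genes rose than fell with pterostilbene, and the gene that rose most was *RPN4*, which is not a subunit. A log2 fold change is the mean log2 signal with pterostilbene minus that of the controls, given with its standard error (SE). Genes are called risen or fallen at an adjusted p under 0.05 in limma, with Benjamini-Hochberg adjustment over all probe sets. Of the 35 genes, 19 rose, 1 fell and the other 15 missed the threshold. Among all 5656 genes, 35.8% rose and 18.4% fell. The groups were fully separated, with pterostilbene higher, for 30 of the 35 proteasome genes and 44.2% of all genes. They were separated with pterostilbene lower for 1 proteasome gene and 24.5% of all genes. The median log2 fold change was 0.40 for the proteasome genes and 0.22 for all genes, and after median centring it was -0.06 for the proteasome genes, against -0.23 for all genes.

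**Figure D1:**
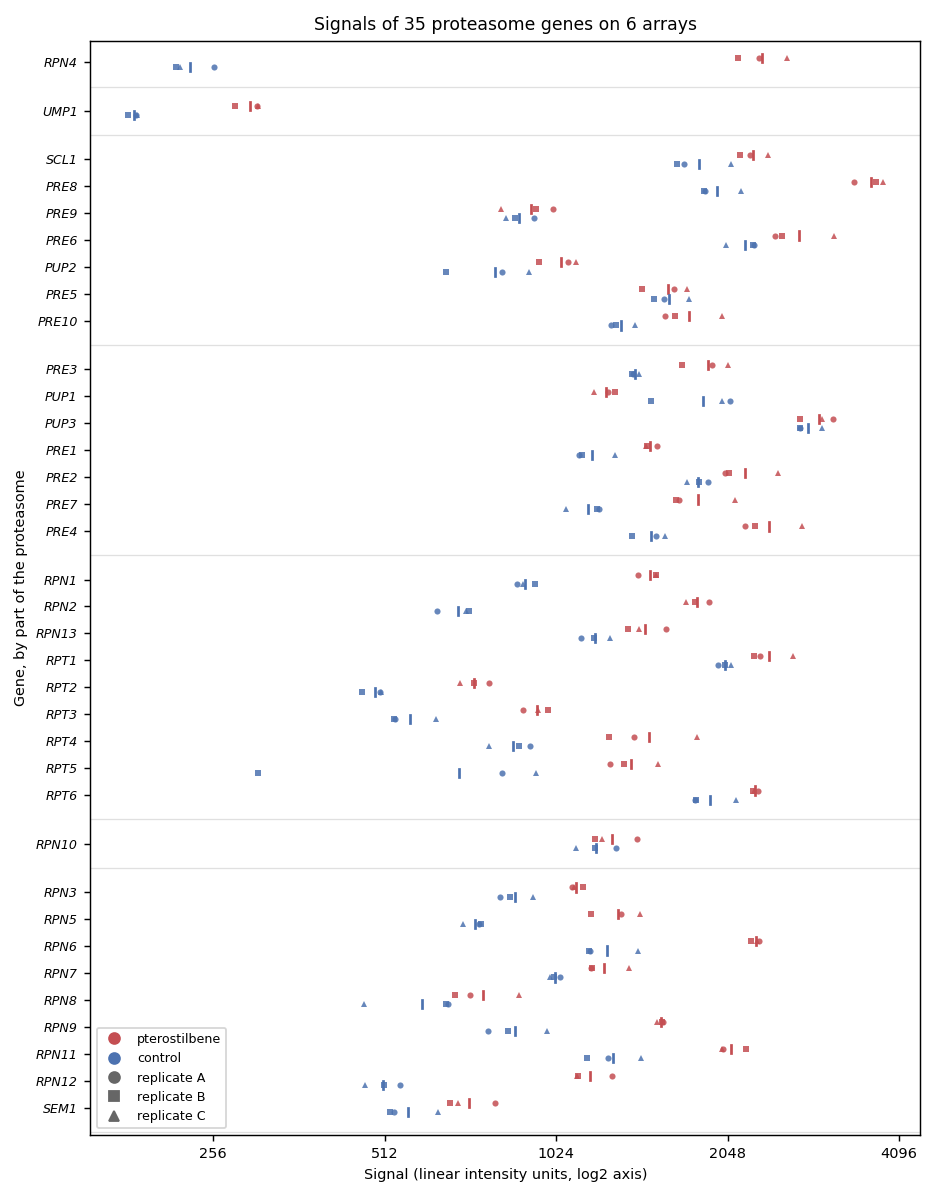
Signals of 35 proteasome genes on 6 arrays, on a log2 axis of linear intensity units, with a point per array, a vertical bar at the mean of each group and pterostilbene above control within each gene. *RPN4* stands apart with 2140 to 2607 on the pterostilbene arrays and 220.2 to 257 on the control arrays, *PUP1* is the gene whose pterostilbene signals all lie below its controls, and positions of different genes are not to be compared, since probe sets differ in brightness.

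*RPN4*, the transcription factor that activates proteasome genes, had signals of 2322, 2140 and 2607 in pterostilbene-treated cells and 257, 220.2 and 224 in control cells. The groups were far apart, with the lowest treated signal many times the highest control signal. Its mean was 2356 ± 236 with pterostilbene and 234 ± 20.3 in the controls (SD, n = 3 each), a 10.1-fold rise and a log2 fold change of 3.33 (SE 0.12, limma adjusted p = 9.9e-05). It ranked 98 of 5656 genes by log2 fold change. Over the 15 alternative settings the log2 fold change of *RPN4* was 2.88 to 3.52, and it passed the test in each of them.

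No subunit rose as much as *RPN4*. Subunits that rose did so by 1.26-fold to 2.63-fold, and 2 of them, *RPN2* and *RPN12*, rose at least 2-fold, whereas 17.0% of all genes rose by this much. Of the 33 subunits, 17 rose, 1 fell and 15 missed the threshold, with a median log2 fold change of 0.39. In 28 of them the treated signals were all above the control signals.

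**Figure D2:**
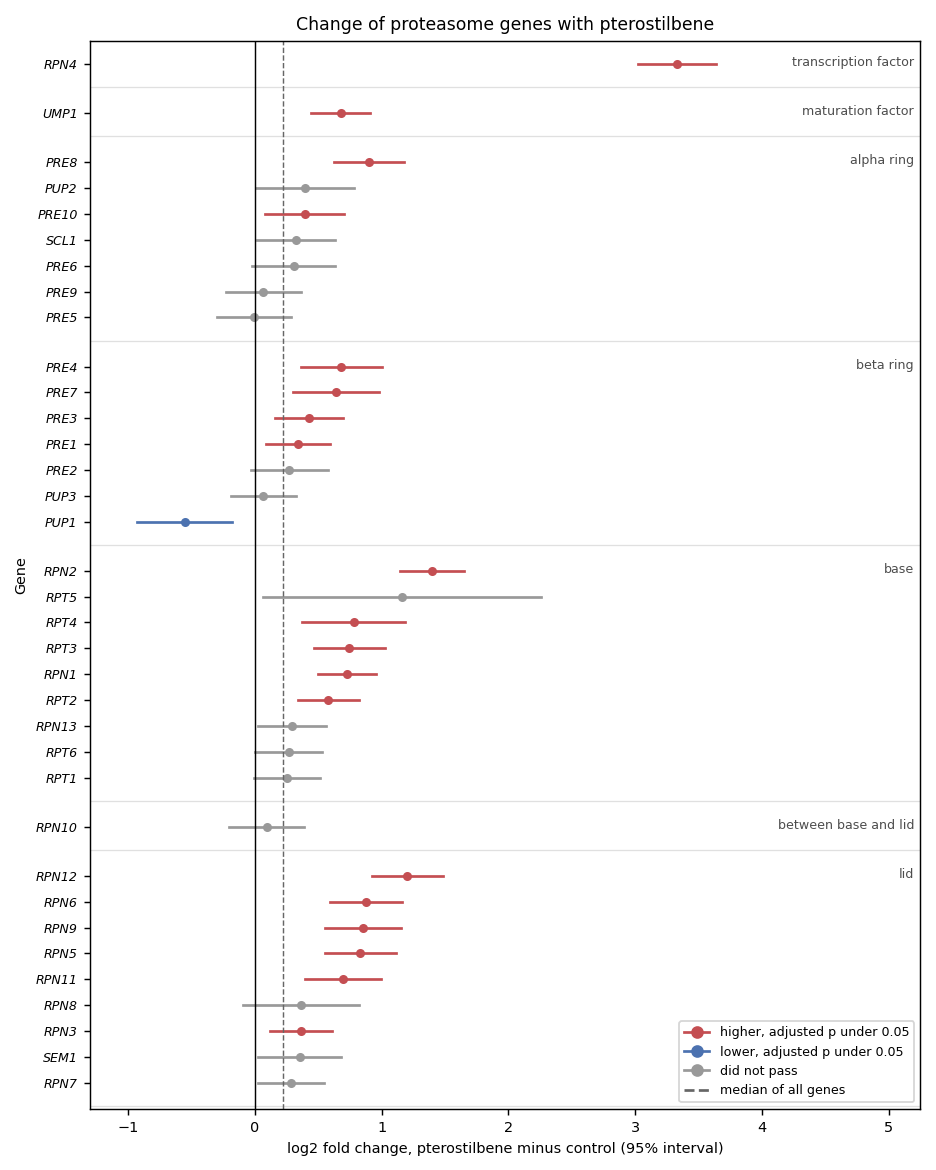
Log2 fold change of each proteasome gene, pterostilbene minus control, with its 95% interval from limma, by part of the complex. The dashed line is the median of all genes, 0.22. In the regulatory particle 18 of 19 genes lie to the right of it, in the core 10 of 14, and *PUP1* at -0.56 is the one gene called lower.

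In the core particle 6 of 14 genes rose, 1 fell and 7 missed the threshold, with a median log2 fold change of 0.33. In the regulatory particle 11 of 19 genes rose and 8 did not pass the test, with a median of 0.69. All 19 of its log2 fold changes were above 0, although 8 of them turned below 0 after median centring. Read against the 35.8% of all genes that rose, the share was 42.9% in the core and 57.9% in the regulatory particle. On each pterostilbene array the median of the regulatory particle genes, taken relative to the control mean, exceeded that of the core genes, by 0.38, 0.32 and 0.17 log2 units on arrays A, B and C. On the control arrays this difference was -0.05, 0.05 and -0.04. The control values centre near 0 by construction, since each gene was set against its own control mean. The treated arrays all lay above the control arrays in this difference. Since the genes were chosen with results known, no p is given for it. The difference between the medians of the regulatory particle and the core became smaller after quantile normalization, where the core median was 0.38 and the regulatory particle median 0.60. The 2 groups also differed in brightness, with percentiles among all genes of 83.6 to 94.8 for the core and 76.0 to 93.2 for the regulatory particle. Over all genes the median log2 fold change was -0.37 in the brightest of 10 bins and -0.11 in the next. In the brightest bin 14.2% of genes rose and 51.3% fell, and in the next 26.0% rose and 33.6% fell. The part of brightness in the difference between core and regulatory particle was not tested. Median centring moved every gene by the same amount, so it did not change the difference between the 2 medians. The core median was then -0.12 and that of the regulatory particle 0.24, against -0.23 for all genes.

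**Figure D3:**
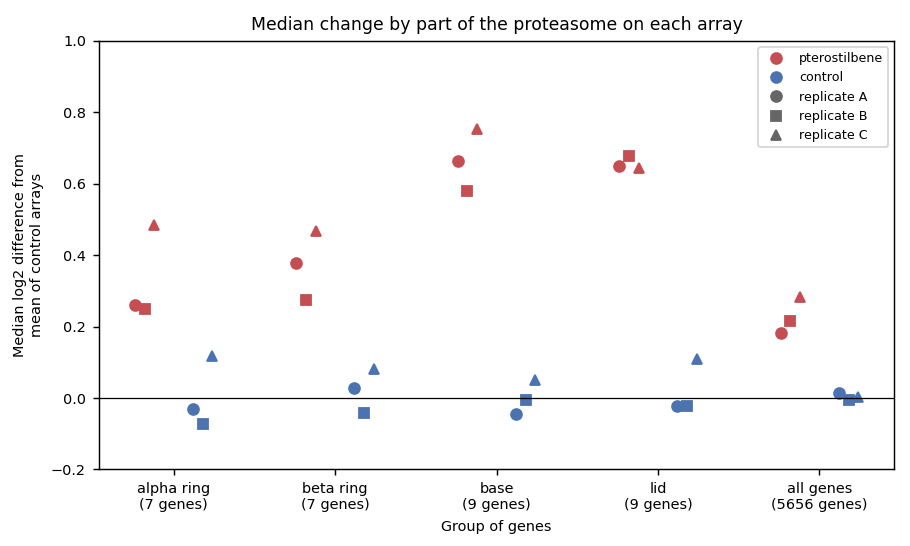
Median log2 difference from the mean of the control arrays, for the genes of the alpha ring, beta ring, base and lid and for all 5656 genes, with a point per array and pterostilbene left of control. The base and lid lie at 0.58 to 0.75 on the pterostilbene arrays, the alpha and beta rings at 0.25 to 0.48 and all genes at 0.18 to 0.28.

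In the alpha ring 2 of 7 genes rose (28.6%, against 35.8% of all genes) and 5 did not pass the test. All 7 lay in the brightest of 10 bins or the next, where 14.2% and 26.0% of genes rose. *PRE8*, the second alpha subunit, had signals of 3414, 3724 and 3830 with pterostilbene and 1870.2, 1864 and 2160 in the controls, 1.86-fold higher without overlap (log2 fold change 0.90, SE 0.11, limma adjusted p = 0.0019). It was the core gene with the largest rise and passed the test under all 15 alternatives. *PRE10*, the seventh alpha subunit, rose by 0.39 (SE 0.13, limma adjusted p = 0.048), but it lay at the edge of the threshold, and leaving out any 1 of the 6 arrays gave an adjusted p of 0.059 to 0.13.

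The other alpha subunits did not pass the test. *PUP2*, the fifth alpha subunit, had signals of 1073, 954 and 1108 with pterostilbene and 824, 657 and 919 in the controls, which do not overlap, and its log2 fold change of 0.40 (SE 0.16) had an adjusted p of 0.086 in limma. *SCL1*, the first, and *PRE6*, the fourth, had log2 fold changes of 0.32 and 0.31. *SCL1* passed without control replicate C (0.42, limma adjusted p = 0.037). At the low end *PRE9*, the third and the only subunit of the core that yeast can live without, had signals of 1011, 944 and 821 with pterostilbene and 938, 868.1 and 838 in the controls. *PRE5*, the sixth, had 1651, 1448 and 1739 with pterostilbene and 1581, 1520 and 1751 in the controls. The groups overlapped for both genes, with 95% intervals of -0.23 to 0.36 for *PRE9* and -0.30 to 0.29 for *PRE5* for the log2 fold change. After median centring *PRE9* passed as lower (-0.39, limma adjusted p = 0.048), as did *PRE5* (-0.46, limma adjusted p = 0.020). In that setting the median of all genes was -0.23 and 39.0% of all genes were lower.

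Of the 3 catalytic subunits of the beta ring, 1 rose (33.3%, against 35.8% of all genes), 1 fell and 1 missed the threshold. These 3 also lay in the brightest of 10 bins or the next, where 14.2% and 26.0% of genes rose and 51.3% and 33.6% fell. *PRE3*, which carries the caspase-like site, had signals of 1922, 1700.1 and 2055 with pterostilbene and 1395, 1391 and 1434 in the controls. All treated signals were above the controls and the gene rose 1.34-fold (log2 fold change 0.42, SE 0.11, limma adjusted p = 0.023), with adjusted p of 0.067 to 0.072 when pterostilbene replicate A, control replicate A or control replicate B was left out. *PRE2*, which carries the chymotrypsin-like site, had 2023, 2062 and 2514 with pterostilbene and 1892, 1825 and 1735 in the controls. These do not overlap either, but the log2 fold change of 0.27 (SE 0.12) did not pass (limma adjusted p = 0.12).
*PUP1*, which carries the trypsin-like site, was the only one of the 35 genes that fell. Its signals were 1261, 1298 and 1195 with pterostilbene and 2066, 1501 and 2001 in the controls, all treated values below all control values. The mean was 1252 ± 52.4 with pterostilbene and 1856 ± 309 in the controls (SD, n = 3 each), with a log2 fold change of -0.56 (SE 0.15, limma adjusted p = 0.029). Most of the spread lay in the controls, where replicate B was low. The call was lost when any array but control replicate B was left out, with log2 fold changes of -0.58 to -0.47 and adjusted p of 0.071 to 0.086, and after reference gene centring (-0.36, adjusted p = 0.090), while the direction stayed the same in all alternatives.

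Of the beta subunits without a peptidase site, *PRE4* and *PRE7* rose most. *PRE4*, the seventh beta subunit, had signals of 2200.3, 2287 and 2765 with pterostilbene and 1532, 1391 and 1590 in the controls (log2 fold change 0.68, SE 0.13, limma adjusted p = 0.0082). *PRE7*, the sixth, had 1679, 1665 and 2106 with pterostilbene and 1220, 1207 and 1064 in the controls (log2 fold change 0.64, SE 0.14, limma adjusted p = 0.012). Both were 1.55-fold to 1.60-fold higher, with no overlap and with replicate C highest among the treated arrays, and neither passed after median centring. *PRE1*, the fourth beta subunit, rose by 0.34 (limma adjusted p = 0.039), a call that was lost when any array but control replicate C was left out (adjusted p of 0.056 to 0.13). *PUP3*, the third, had 3137, 2747 and 3002 with pterostilbene and 2740.1, 2743 and 3004 in the controls. The groups overlapped, with a 95% interval of -0.19 to 0.32 for the log2 fold change. After median centring *PUP3* passed as lower (-0.39, limma adjusted p = 0.027), where the median of all genes was -0.23.

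*UMP1* encodes the chaperone that joins half-barrels of the core and is degraded as the first substrate of the new proteasome. Its signals were 306, 279 and 307 with pterostilbene and 188, 182 and 189 in the controls, clearly separate groups, and it rose 1.60-fold (log2 fold change 0.68, SE 0.09, limma adjusted p = 0.0027). After median centring the value of *UMP1* was 0.22 (limma adjusted p = 0.086).

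The base of the regulatory particle held the largest rise of any subunit. *RPN2*, a large scaffold subunit of the base, had signals of 1900.1, 1797 and 1730.3 with pterostilbene and 633, 720 and 711 in the controls. The groups did not overlap and the mean was 1809 ± 85.6 with pterostilbene and 688 ± 47.8 in the controls (SD, n = 3 each), a 2.63-fold rise (log2 fold change 1.40, SE 0.10, limma adjusted p = 3.9e-04). *RPN1*, the other scaffold and a docking site for ubiquitin shuttles, rose 1.66-fold (log2 fold change 0.73, SE 0.09, limma adjusted p = 0.0021). Both scaffolds passed the test under all alternatives.
*RPN13*, a ubiquitin receptor that binds to Rpn2p, did not pass, with a log2 fold change of 0.29 (SE 0.11, limma adjusted p = 0.074).

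Of the 6 ATPases of the base, 3 rose (50%, against 35.8% of all genes) and 3 did not pass the test. Those that rose were *RPT4* (0.78, limma adjusted p = 0.012), *RPT3* (0.74, adjusted p = 0.0038) and *RPT2* (0.58, adjusted p = 0.0055) on the log2 scale, and after median centring none of these 3 passed. *RPT6* had signals of 2315, 2265 and 2278 with pterostilbene and 1798, 1805 and 2121 in the controls, and *RPT1* had 2330.3, 2274 and 2666 with pterostilbene and 1973, 2026 and 2079 in the controls. Neither pair of groups overlapped, but the log2 fold changes of 0.27 for *RPT6* and 0.26 for *RPT1* had adjusted p of 0.091 and 0.094 in limma. *RPT6* passed without control replicate C (0.34, limma adjusted p = 0.047).
For *RPT5* 1 control array stood apart. Its signals were 1272, 1346 and 1548 with pterostilbene and 823, 307 and 943 in the controls, and the log2 fold change of 1.16 (SE 0.44) did not pass (limma adjusted p = 0.079). Without control replicate B the log2 fold change was 0.65 and passed (limma adjusted p = 0.027). The other 3 probe sets for *RPT5* did not show a low value on that array relative to both other controls, with 8.9, 288 and 543 on control replicate B against 3.2 to 11.6, 179 to 343 and 441 to 502 on the other controls. The 2 brighter of these were higher with pterostilbene (log2 fold changes 0.83 and 0.64, limma adjusted p = 0.046 and 0.023). The dimmest had signals of 25.2, 33.1 and 25.7 with pterostilbene and 11.6, 8.9 and 3.2 in the controls, near the 10th percentile of all signals, 8.7, and no fold is given for it.
The probe sets of *PRE3* also differed in size, since the 2 dimmer ones had log2 fold changes of 0.91 and 1.06 (limma adjusted p = 0.0021 and 0.0020), both larger than the 0.42 of the brightest.

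In the lid 6 of 9 genes rose (66.7%, against 35.8% of all genes) and 3 did not pass the test. *RPN12*, a subunit needed to complete the lid, had signals of 1286, 1118 and 1115 with pterostilbene and 545, 512 and 473 in the controls, a 2.30-fold rise without overlap (log2 fold change 1.20, SE 0.11, limma adjusted p = 8.0e-04). *RPN6*, which links the lid to the core, had 2321, 2254 and 2308 with pterostilbene and 1173, 1171 and 1424 in the controls (log2 fold change 0.88, SE 0.12, limma adjusted p = 0.0023). *RPN9* (0.85) and *RPN5* (0.83), both structural subunits, rose by similar amounts on the log2 scale. *RPN12*, *RPN6*, *RPN9* and *RPN5* passed under all 15 alternatives.
*RPN11*, the deubiquitinase of the lid, rose by 0.69 (SE 0.12, limma adjusted p = 0.0060), while its partner *RPN8*, which forms a dimer with Rpn11p, had 0.36 (SE 0.19, adjusted p = 0.16). *RPN11* did not pass after median centring. The structural subunit *RPN3* rose by 0.36 (limma adjusted p = 0.027), with adjusted p of 0.065 to 0.097 when replicate A or B of either group was left out.

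The smallest changes of the lid were in *RPN7* and *SEM1*. *RPN7*, a structural subunit, had signals of 1178, 1183 and 1373 with pterostilbene and 1039, 1016 and 999 in the controls (log2 fold change 0.29, limma adjusted p = 0.069). *SEM1*, a very small subunit that also belongs to other complexes, had 800, 667 and 690.2 with pterostilbene and 531, 524 and 637 in the controls (log2 fold change 0.35, limma adjusted p = 0.074). Neither passed, although the groups did not overlap, and *SEM1* passed without control replicate C (0.44, limma adjusted p = 0.049). *RPN10*, a ubiquitin receptor between base and lid, was the gene of the regulatory particle closest to no change. Its signals were 1420.1, 1196 and 1234 with pterostilbene and 1303, 1199 and 1109 in the controls, overlapping groups with a 95% interval of -0.21 to 0.39 for the log2 fold change.

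Proteasome probe sets were bright ones, and the median change of the brightest probe sets was below 0. All genes were split into 10 bins of equal size by brightness, and of the 35 proteasome genes 12 lay in the brightest bin and 18 in the next. In the brightest bin the median log2 fold change was 0.31 for the proteasome genes and -0.37 for all genes. In the next bin it was 0.52 for the proteasome genes and -0.11 for all genes. Relative to the genes of their own bin, 34 of the 35 proteasome genes were above the median and 1, *PUP1*, was below. After quantile normalization, which removes differences in the distribution of signals between arrays, 19 proteasome genes rose and 1 fell, whereas 21.6% of all genes rose and 30.4% fell. After median centring 8 rose and 4 fell, with 19.3% of all genes rising and 39.0% falling.

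**Figure D4:**
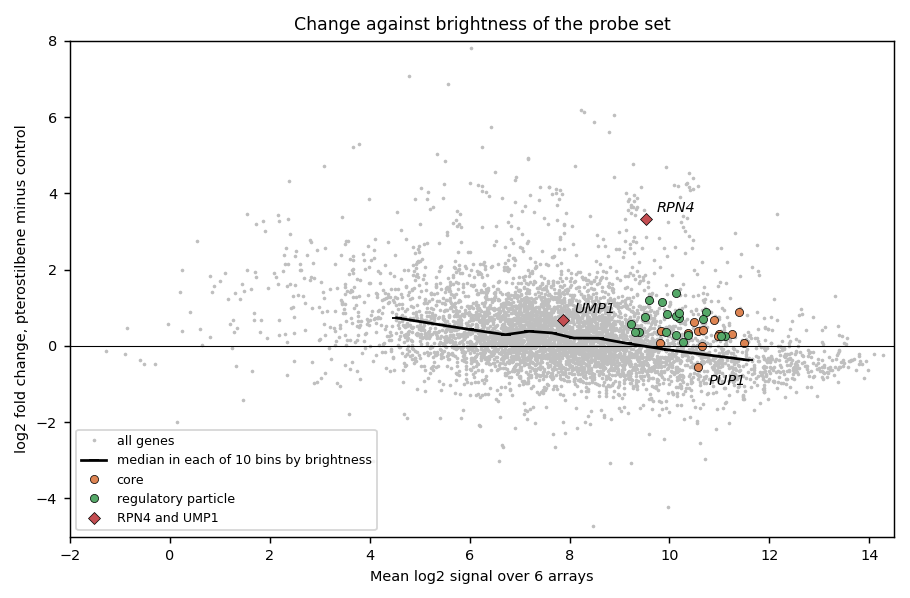
Log2 fold change, pterostilbene minus control, against the mean log2 signal over 6 arrays, for 5656 genes (grey), the core, the regulatory particle, and *RPN4* and *UMP1*. The black line is the median in each of 10 bins of equal size, which is 0.73 in the dimmest and -0.37 in the brightest, and 34 of 35 proteasome genes lie above the median of their bin.

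Genes known to act on Rpn4p were examined next to *RPN4*. Pdr1p, Pdr3p, Yap1p and Hsf1p are transcription factors of drug, oxidative and heat stress responses that bind the *RPN4* promoter, while Ubr2p, Mub1p and Rad6p form the ubiquitin ligase that sends Rpn4p to the proteasome. All 7 genes rose, where 35.8% of all genes did, and the count is of genes listed with earlier results of these data known. *PDR3* had signals of 709, 760 and 936 with pterostilbene and 89.9, 92.5 and 85.8 in the controls, 8.91-fold higher (log2 fold change 3.15, SE 0.13, limma adjusted p = 1.1e-04), a size close to that of *RPN4*. *YAP1* rose by 1.55 (adjusted p = 3.0e-04) and *HSF1* by 1.28 (adjusted p = 0.0013) on the log2 scale, and *PDR1* by 0.36 (adjusted p = 0.022). Of the genes of Rpn4p turnover, *RAD6* rose by 1.02, *MUB1* by 0.97 and *UBR2* by 0.55 (limma adjusted p = 0.0014, 0.0013 and 0.013). The groups did not overlap for any of the 7 genes. *PDR3*, *YAP1*, *HSF1*, *RAD6* and *MUB1* passed the test under all alternatives, whereas *PDR1* and *UBR2* did not pass after quantile normalization or median centring, where *PDR1* had -0.09. *PDR1* also did not pass when replicate A or B of either group was left out (adjusted p of 0.065 to 0.079), nor *UBR2* without pterostilbene replicate B (adjusted p = 0.051). With a block for the replicate letter, neither *PDR1* nor *UBR2* passed (limma adjusted p = 0.086 and 0.058).

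**Figure D5:**
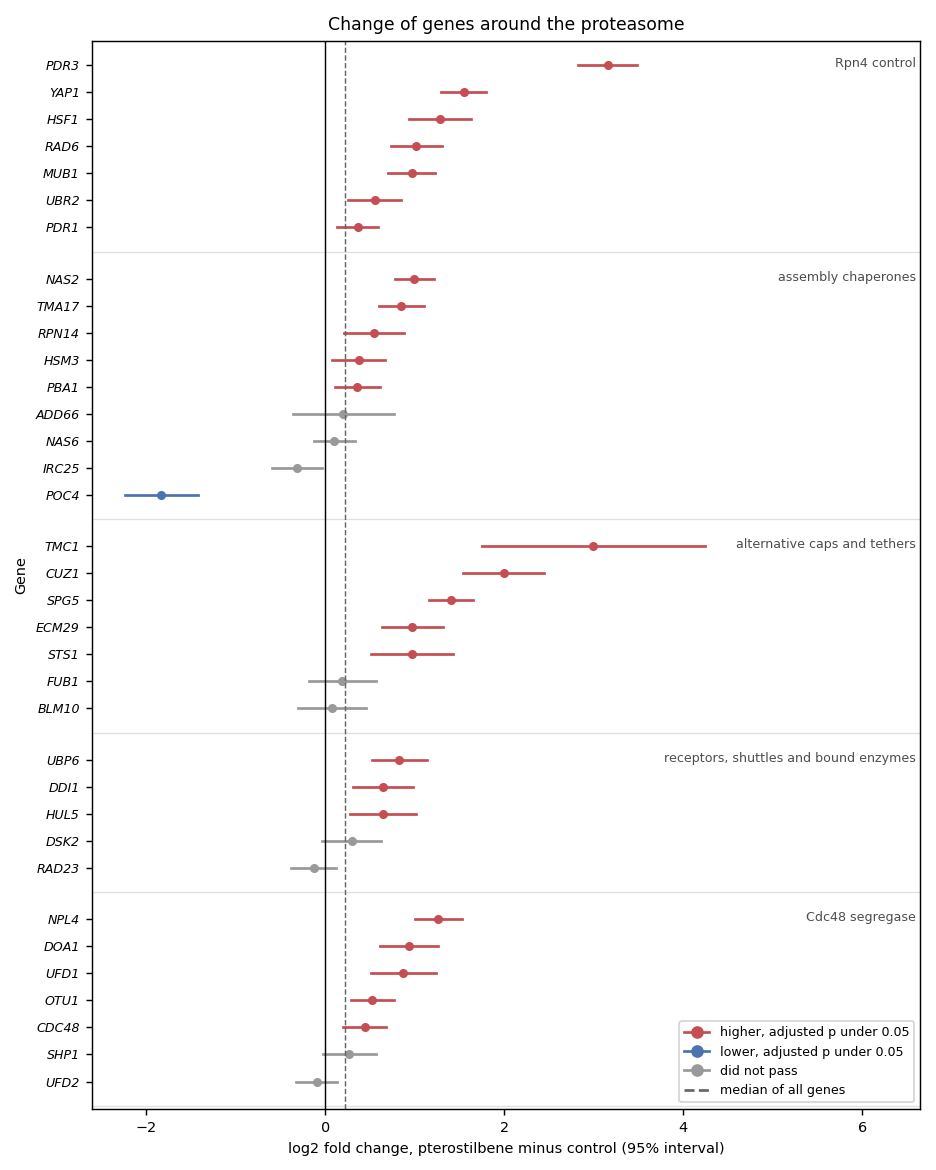
Log2 fold change, pterostilbene minus control, with its 95% interval from limma, for 35 genes that act on or with the proteasome, in 5 groups. *PDR3* at 3.15 and *TMC1* at 2.995 lie farthest to the right, and *POC4* at -1.83 is the gene called lower.

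The chaperones that assemble the proteasome went both ways. Of 9 genes, 5 rose (55.6%, against 35.8% of all genes), 1 fell and 3 missed the threshold. The one that fell was *POC4*, whose product pairs with Irc25p to build the alpha ring. Its signals were 148, 176 and 207 with pterostilbene and 547, 644 and 689 in the controls, and the groups lay far apart. The log2 fold change was -1.83 (SE 0.17, limma adjusted p = 7.3e-04), and it passed as lower under all alternatives. Its partner *IRC25* had all treated signals below the controls as well, with a log2 fold change of -0.31 that did not pass (limma adjusted p = 0.062). *NAS2*, a chaperone of the Rpt4p and Rpt5p pair, had signals of 116.2, 119.3 and 110.1 with pterostilbene and 58.2, 57.9 and 57.1 in the controls, 1.99-fold higher (limma adjusted p = 7.0e-04). *TMA17*, a stress-induced chaperone of the Rpt3p and Rpt6p pair, rose by 0.85 on the log2 scale. *NAS2* and *TMA17* passed under all alternatives.

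Among 7 genes of alternative caps, tethers and zinc finger partners, 5 rose (71.4%, against 35.8% of all genes). The other 2, *BLM10* and *FUB1*, did not pass. *TMC1*, a zinc finger protein whose gene is a known target of Rpn4p, had signals of 1386, 1404 and 1551 with pterostilbene and 260.1, 80.6 and 284 in the controls. The treated signals were close together and the controls were not, since control replicate B was low, as for *RPT5*. Its log2 fold change was 2.995 (SE 0.50, limma adjusted p = 0.0053) and 2.41 without that array (adjusted p = 0.0010). *CUZ1*, a related zinc finger protein that binds the proteasome and Cdc48p, had signals of 52.5, 53.9 and 56.1 with pterostilbene and 10.8, 17 and 13.7 in the controls, which is dim for this array, and rose by 1.99 on the log2 scale (limma adjusted p = 7.3e-04). *SPG5*, a proteasome regulator of stationary phase, rose by 1.41 (limma adjusted p = 3.7e-04).
Of 5 genes of ubiquitin shuttles and enzymes bound to the proteasome, 3 rose (60%, against 35.8% of all genes). They were the deubiquitinase *UBP6* (0.83), the shuttle *DDI1* (0.65) and the ubiquitin ligase *HUL5* (0.65). *HUL5* did not pass without pterostilbene replicate A (limma adjusted p = 0.053). *DDI1* (0.32, adjusted p = 0.11) and *HUL5* (0.37, adjusted p = 0.093) did not pass after quantile normalization, and none of the 3 passed after median centring.
Of 7 genes of the Cdc48p segregase, an ATPase that pulls ubiquitinated proteins out of complexes and membranes, 5 rose (71.4%, against 35.8% of all genes). The largest log2 fold changes were in the cofactors *NPL4* (1.27, limma adjusted p = 5.6e-04), *DOA1* (0.93, adjusted p = 0.0028) and *UFD1* (0.87, adjusted p = 0.0054). *UFD1* did not pass after median centring. Over all 35 of these related genes, 25 rose and 1 fell, with a median log2 fold change of 0.65, where 35.8% of all genes rose and 18.4% fell with a median of 0.22. After quantile normalization 18 of the related genes rose and 3 fell, where 21.6% of all genes rose and 30.4% fell. After median centring 13 rose and 5 fell, where 19.3% of all genes rose and 39.0% fell.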

How the data were processed

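Signals of GeneChip Yeast Genome S98 arrays were analysed as deposited. They are linear intensity values, which the authors obtained with Affymetrix software (GCOS 1.1, per the submitters' notes). The summarisation algorithm, background correction and scaling target are not given in the sources used here. Log2 was taken after raising 23 zero signals to 0.1. With 60 control probe sets left out, 9275 were tested in limma 3.58.1 under R 4.3.3 (lmFit and eBayes, Benjamini-Hochberg over all of them). Of these, 6504 had 1 gene in the platform annotation, 328 had several and 2443 had none, and the brightest probe set stood for each of 5656 genes, named by the RefSeq gene table of assembly R64. The script was tested on simulated data. The alternatives were quantile normalization, median centring, centring on *ACT1*, *ALG9*, *TAF10*, *TFC1*, *UBC6*, *PDA1* and *GCR1*, adding a pseudocount of 8.7, omitting the dimmest 25% of probe sets, the t-test of the study's methods with Benjamini-Hochberg adjustment, trended and robust moderation, a block for the replicate letter, averaging of probe sets, and omission of each array in turn.

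The members and lists were chosen with earlier results of these data known. By rule every member was named, and signals per array were given for the catalytic subunits, *RPN4*, *UMP1*, *SEM1*, the 2 largest and 2 smallest changes of each ring, the base and the lid, and members that fell. All listed genes acting on Rpn4p were named, and the 3 largest changes of each other list. The signals of *RPN10*, and *IRC25*, *BLM10* and *FUB1*, were added after their values were seen. Promoter and protein sequences were not analysed here.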

Additional observations from a re-analysis of the deposited data

How the results depend on the processing

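Scaling moved these results most. After median centring the median of all genes was -0.23, with 19.3% of all genes higher and 39.0% lower. With median centring 8 proteasome genes were higher and 4 lower (core 1 and 4, regulatory particle 6 higher, related genes 13 and 5), and the median log2 fold change was -0.056 for all proteasome genes, -0.12 for the core and 0.24 for the regulatory particle. The values that turned below 0 there were *SCL1* -0.13, *PRE9* -0.39, *PRE6* -0.15, *PUP2* -0.056, *PRE10* -0.061, *PRE3* -0.028, *PUP3* -0.39, *PRE1* -0.11, *PRE2* -0.18, *RPN13* -0.16, *RPT1* -0.20, *RPT6* -0.19, *RPN3* -0.090, *RPN7* -0.17, *RPN8* -0.089, *SEM1* -0.10, *RPN10* -0.36 and *PDR1* -0.087. With reference gene centring 30 were higher and 0 lower (core 10 and 0, regulatory particle 18 higher), where 47.5% of all genes were higher and 12.8% lower, with medians of 0.59, 0.52 and 0.88 and an all-gene median of 0.42, and *PRE5* was 0.19. With quantile normalization 3 related genes were lower, the regulatory particle median was 0.60, the core minus regulatory particle difference was -0.22, *PRE9* was -0.043 and *PRE5* 0.030. Median and reference gene centring move every gene by the same amount, by construction. Before centring, the 7 reference genes had a median log2 fold change of -0.26, with 5 values below 0 and 2 above. For 4 of them all treated signals lay below all control signals, and 1, *PDA1*, was called lower. Centring on them therefore raised every log2 fold change.

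Trended and robust moderation called 17 regulatory particle genes higher and 2 related genes lower, where 38.3% of all genes were higher and 21.3% lower. Omitting the dimmest probe sets called 2 related genes lower, where 22.5% of all genes were lower. Replicate letters did not pair the arrays (correlations of same-letter deviations -0.04 to -0.01), and the fit with the replicate block called 14 proteasome genes higher and 0 lower, with 2 of 14 core genes higher and 0 lower, where 28.1% of all genes were higher and 12.4% lower. It called 18 related genes higher. Of the related genes named above, those lost were *HUL5*, *UBR2* and *PDR1* (limma adjusted p = 0.053, 0.058 and 0.086). Omitting each array in turn gave 15 to 21 proteasome genes higher and 0 to 1 lower. Over these fits 28.57% to 33.04% of all genes were higher and 13.14% to 19.25% were lower. Of the 14 core genes, 3 to 6 were higher and 0 to 1 lower. The same fits called 10 to 13 regulatory particle genes higher and 1 to 2 related genes lower. They gave a regulatory particle median of 0.62 to 0.71 and a core minus regulatory particle difference of -0.36 to -0.29. *PRE5* lay at -0.062 to 0.070 in them. Of the 20 proteasome genes called, 8 were called under all 15 alternatives, namely *PRE8*, *RPN1*, *RPN2*, *RPN5*, *RPN6*, *RPN9*, *RPN12* and *RPN4*. The cause of the other changes was not tested. Precision is limited by the number of arrays.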

Other observations

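Replicate C carried the highest signal of its group for 18 of the 35 proteasome genes among the pterostilbene arrays, with 12 for replicate A and 5 for replicate B. Among the control arrays the counts were 21 for replicate C, 11 for replicate A and 3 for replicate B. The same shares among all genes were not counted. Relative to the control mean, the median of all genes was 0.18, 0.22 and 0.28 log2 units on pterostilbene arrays A, B and C. On control arrays A, B and C it was 0.013, -0.005 and 0.004. Of the proteasome genes, 2 pairs lie with a single protein-coding gene between them in the RefSeq gene table. *PRE4* and *RPN12* had log2 fold changes of 0.68 and 1.20, and *RPT4* and *RPN8* had 0.78 and 0.36.

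By the methods' t-test on log2 signals, with Benjamini-Hochberg adjustment and a ratio of mean signals of at least 2, the proteasome genes called higher were 3, *RPN2*, *RPN12* and *RPN4*, and 0 were called lower. With the adjustment and the same limit on the ratio, 907 of all 5656 genes were higher and 220 lower. With the adjustment and no limit on the ratio, 19 proteasome genes were higher and 1 lower, and 1864 of all genes were higher and 995 lower. At an unadjusted p under 0.05 in this t-test and no limit on the ratio, 25 proteasome genes were higher and 1 was lower. The share of all genes at this unadjusted threshold was not counted, so the 25 and 1 cannot be read as a result about proteasome genes.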
